A study of Mus musculus with 8 samples.

Results

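The genes described here are cytokines and receptors of the IL-6 and IL-1 families, followed across siKlf4 and siControl transfections of NMuMG cells, a mouse mammary epithelial cell line that undergoes an epithelial to mesenchymal transition under TGFβ. The list of 10 genes was chosen by family membership after the high Il11 and low Il33 values of arrays labelled siKlf4 had been seen, so every comparison of these genes between siKlf4 and siControl is given as a description, without a test. Il11 and Il33 are described without a test for TGFβ too, since the arrays compared are those on which they were chosen. 8 of the 10 genes had a probe set with a single gene symbol, out of 19937 genes measured in all. Il11ra1, the IL-11 receptor subunit, and Il1rl1, the IL-33 receptor, had no probe set under their symbol in the platform annotation and were not analysed here. Each of the 8 measured genes had 1 probe set.

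RNA was profiled on 8 Affymetrix whole-transcript arrays in 4 groups of 2. The groups were siKlf4 (a pool of 2 siRNAs against the transcription factor Klf4) with TGFβ, siControl (a non-targeting siRNA) with TGFβ, siKlf4 without TGFβ and siControl without TGFβ. TGFβ was given at 2 ng/ml for 2 days. The methods name the subclone NMuMG/E9, so all groups share the background of 1 cloned line. The comparisons ask how Klf4 depletion and TGFβ alter gene expression in these cells. Values are RMA expression values on the log2 scale, so a difference of 1 is a doubling, and they are not comparable between genes because each probe set has its own brightness. Because the sources do not state if replicate arrays were separate transfections, the p-values may reflect technical variation alone. As these are bulk samples, fewer cells of a type and less RNA per cell cannot be told apart.

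Klf4 itself had log2 values of 7.43 and 7.24 in siKlf4 arrays with TGFβ, 7.46 and 7.46 in siControl arrays with TGFβ, 8.03 and 7.91 in siKlf4 arrays without TGFβ, and 8.60 and 8.43 in siControl arrays without TGFβ. It was lower in siKlf4 arrays without TGFβ (log2 difference -0.54, SE 0.0987, adjusted p = 0.00369, limma), while with TGFβ the difference of -0.13 did not pass (adjusted p = 0.444). Klf4 was also lower with TGFβ than without, at -0.63 in siKlf4 arrays (adjusted p = 0.00295) and -1.05 in siControl arrays (0.000357). A list of 11 genes known to be induced by TGFβ, among them Smad7, Fn1 and Acta2, went with the siKlf4 label more than with the TGFβ label. Its mean log2 value was 8.54 to 8.58 in siKlf4 arrays with TGFβ, 7.11 to 7.17 in siControl arrays with TGFβ, 8.32 to 8.42 in siKlf4 arrays without TGFβ and 7.11 to 7.22 in siControl arrays without TGFβ. In siControl arrays, 0 of the 11 genes passed as higher with TGFβ in limma (1 at an unadjusted p under 0.05) and 1 as lower (Smad7, -0.44), and in siKlf4 arrays 3 passed as higher. Between transfections, 8 of the 11 were called higher in siKlf4 arrays, with TGFβ as without. Whether labels were exchanged between groups could not be settled from the sources used here and was not tested, and an exchange would change what the siKlf4 and TGFβ differences below compare. The groups are therefore named by their labels throughout, and every direction is that of the arrays as labelled. Epithelial markers had a mean log2 value of 8.26 to 8.40 over all 8 arrays, with Krt8, Krt18, Krt19 and Cdh1 not dim and Epcam and Esrp1 dim, that is within the 30% of genes with the lowest mean. Single epithelial markers differed, however, with 3 of 10 called higher (Krt7, Krt8 and Krt18) and 2 lower (Krt19 and Ocln) in siKlf4 arrays, with TGFβ as without. Of 8 leukocyte markers 5 were dim, including Ptprc and Adgre1, and their mean log2 value ranged from 4.52 to 4.56 in siKlf4 arrays with TGFβ, 4.36 to 4.44 in siControl arrays with TGFβ, 4.52 to 4.58 in siKlf4 arrays without TGFβ and 4.42 to 4.50 in siControl arrays without TGFβ. Among them, Csf1r (1.00) and Cd68 (0.61) were called higher in siKlf4 arrays with TGFβ and Csf1r (0.38) without TGFβ. Fibroblast markers (2 of 7 dim) had means of 4.58 to 4.86 and endothelial markers (4 of 6 dim) means of 3.96 to 4.14 over all arrays. The part of other cell types in the results below was not tested.

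IL-6 family cytokines, which include IL-6, IL-11, LIF and cardiotrophin-like cytokine, bind a ligand-specific receptor and signal through the shared subunit gp130, encoded by Il6st, to JAK kinases and the transcription factor STAT3. IL-1 family cytokines, which include IL-1α, IL-18 and IL-33, signal through receptors with a TIR domain, the adaptor MyD88 and NF-κB. IL-1 itself is held in check by the receptor antagonist encoded by Il1rn and by a decoy receptor. IL-11 and LIF act on many epithelia, LIF is known for its part in mammary involution, and IL-33 is stored in epithelial nuclei and released on damage.

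Il11, which encodes the gp130 cytokine IL-11, had the largest positive siKlf4 difference of the 8 measured genes. With TGFβ, its log2 values were 8.75 and 8.69 in siKlf4 arrays, against 4.65 and 4.54 in siControl arrays. Without TGFβ, they were 8.82 and 9.21 in siKlf4 arrays, against 4.45 and 5.03 in siControl arrays. All 4 siKlf4 arrays thus lay above all 4 siControl arrays, whether TGFβ was given or not. The difference was 4.13 with TGFβ (17.5-fold) and 4.27 without TGFβ (19.3-fold), each with an SE of 0.182. Within a transfection, the TGFβ difference of Il11 was -0.30 in siKlf4 arrays, where the groups did not overlap, and -0.15 in siControl arrays, where they did (SE 0.182 each).

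Il33, which encodes the alarmin IL-33, ran the other way. With TGFβ, its log2 values were 7.87 and 8.01 in siKlf4 arrays, against 12.11 and 12.03 in siControl arrays. Without TGFβ, they were 7.88 and 7.25 in siKlf4 arrays, against 10.92 and 10.64 in siControl arrays. The siKlf4 and siControl arrays did not overlap under either condition, and the siControl arrays with TGFβ were the highest of all. The difference was -4.13 with TGFβ (17.6-fold lower in siKlf4) and -3.21 without TGFβ (9.28-fold lower), each with an SE of 0.184. The TGFβ difference of Il33 was 0.38 in siKlf4 arrays, where the groups overlapped, and 1.30 (2.46-fold) in siControl arrays, where they did not (SE 0.184 each). In siKlf4 arrays it was 0.69 without siKlf4 replicate 1 without TGFβ.

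Because these 2 genes had the largest siKlf4 differences of the list in each direction, their promoters are shown, read 5′ to 3′ on the strand of the gene from RefSeq on build GRCm38.p6, 250 bases before to 50 bases after each of the 2 annotated start sites. Capitals mark matches, on either strand, to CACCC (the GT box that Klf factors can bind), TGANTCA (AP-1), CAGAC (the Smad box), TTCNNNGAA (STAT) or the kappaB motif.

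Il11, start site 1, chr7:4782808-4783107, minus strand: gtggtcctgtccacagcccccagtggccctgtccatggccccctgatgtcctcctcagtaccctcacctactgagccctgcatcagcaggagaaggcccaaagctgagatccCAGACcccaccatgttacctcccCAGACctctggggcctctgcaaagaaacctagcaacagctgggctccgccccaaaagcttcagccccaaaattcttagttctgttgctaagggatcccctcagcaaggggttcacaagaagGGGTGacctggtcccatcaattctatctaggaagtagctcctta
Il11, start site 2, chr7:4778092-4778391, minus strand: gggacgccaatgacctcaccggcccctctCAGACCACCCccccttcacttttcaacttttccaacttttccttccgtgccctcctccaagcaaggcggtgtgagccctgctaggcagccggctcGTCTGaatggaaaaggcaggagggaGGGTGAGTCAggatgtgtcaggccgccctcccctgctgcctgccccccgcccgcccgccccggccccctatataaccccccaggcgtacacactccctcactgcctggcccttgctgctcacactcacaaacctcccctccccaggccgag
Il33, start site 1, chr19:29924863-29925162, plus strand: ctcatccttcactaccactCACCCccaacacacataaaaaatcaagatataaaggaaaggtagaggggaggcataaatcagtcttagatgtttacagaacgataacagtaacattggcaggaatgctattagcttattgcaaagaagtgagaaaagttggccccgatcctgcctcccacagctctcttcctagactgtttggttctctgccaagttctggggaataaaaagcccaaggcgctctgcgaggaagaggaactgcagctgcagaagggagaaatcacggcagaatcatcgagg
Il33, start site 2, chr19:29945540-29945839, plus strand: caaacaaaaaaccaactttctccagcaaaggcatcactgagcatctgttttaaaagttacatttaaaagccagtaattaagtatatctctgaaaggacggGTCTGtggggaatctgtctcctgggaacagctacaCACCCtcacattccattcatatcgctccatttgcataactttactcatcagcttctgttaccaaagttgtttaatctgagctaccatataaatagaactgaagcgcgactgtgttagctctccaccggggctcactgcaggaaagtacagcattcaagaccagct

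All 4 windows held at least 1 GT box, and GT boxes were present in 57.5% of 32851 promoters of the same length in the table. The second Il11 start site was the 1 of these 4 with an AP-1 match, TGAGTCA, with its first base at position -98 from the start site, overlapping a GT box on the opposite strand. AP-1 matches occurred in 7.81% of promoters, Smad boxes in 49.6%, STAT matches in 8.30% and kappaB matches in 8.46%. A Smad box was found 2 times at each Il11 start site, 1 time at the second Il33 start site and not at the first. At the second Il11 start site, 1 Smad box was directly followed by a GT box. All 10 listed genes had a promoter in the table, with 16 start sites in all, of which 11 held a GT box, 10 a Smad box, 5 an AP-1 match, 2 a kappaB match (Il6 and Lif) and 0 a STAT match. The windows of Il1rn start sites 2 and 3 overlap and share the same Smad box, which is counted for each. A match says only that these letters stand in the window, and the arrays do not show which start site was used.

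**Figure D1:**
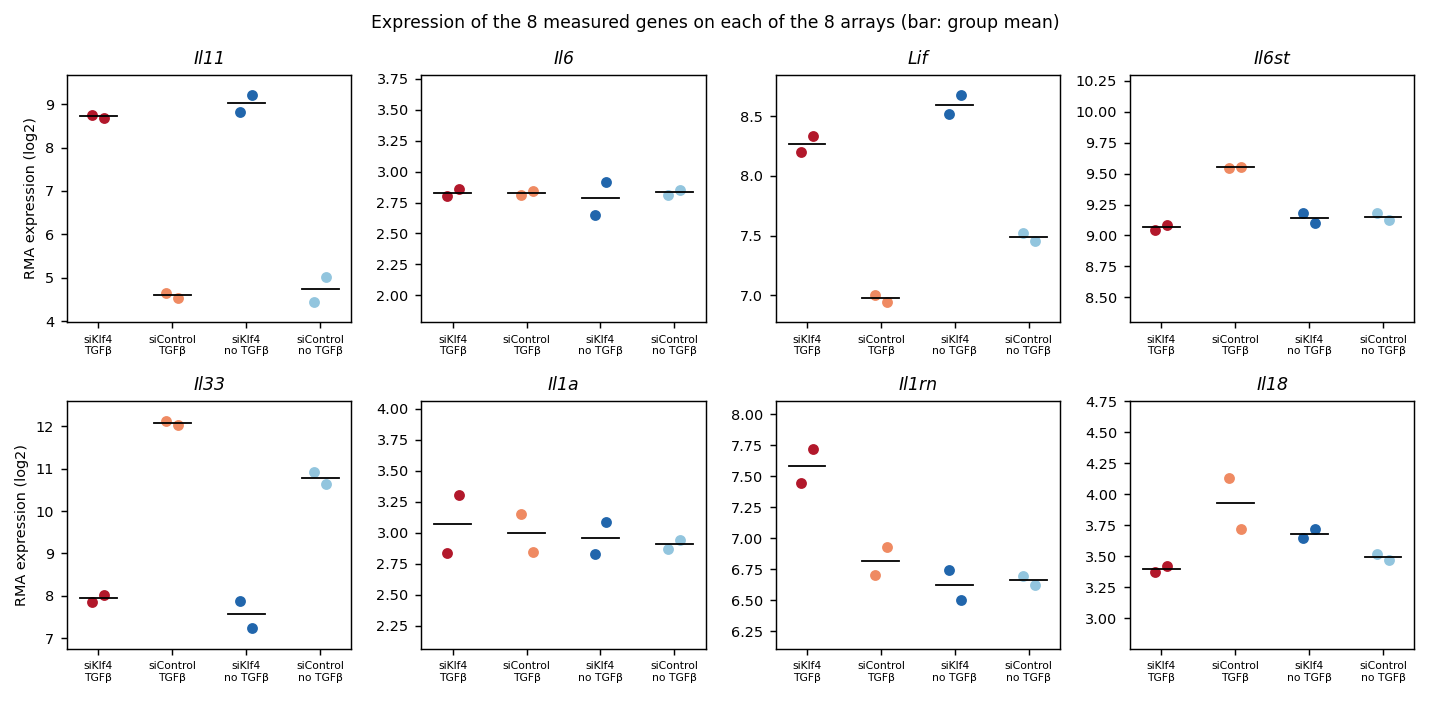
Log2 expression of the 8 measured genes on each array (points) with the mean of each group of 2 (bars), for siKlf4 with TGFβ, siControl with TGFβ, siKlf4 without TGFβ and siControl without TGFβ. Each panel has its own log2 axis, spanning at least 2 units. Il11 and Lif lay higher and Il33 lower in siKlf4 arrays under both conditions, while Il6 and Il1a stayed between 2.65 and 3.30 on every array.

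Among the other IL-6 family members, Lif, which encodes leukaemia inhibitory factor, also lay higher in siKlf4 arrays. With TGFβ, its log2 values were 8.20 and 8.33 in siKlf4 arrays, against 7.0 and 6.95 in siControl arrays. Without TGFβ, they were 8.52 and 8.68 in siKlf4 arrays, against 7.52 and 7.45 in siControl arrays. The groups did not overlap, and the differences of 1.29 with TGFβ (2.45-fold) and 1.11 without TGFβ (2.16-fold) were smaller than those of Il11. Of the 6 members tested for TGFβ, Lif was the only one called lower under both transfections. The TGFβ difference was -0.33 in siKlf4 arrays (SE 0.0902, adjusted p = 0.0435) and -0.51 in siControl arrays (SE 0.0902, adjusted p = 0.00655), by limma. The fall in siControl arrays missed the threshold without siControl replicate 2 with TGFβ (-0.48, adjusted p = 0.0601). The fall in siKlf4 arrays was near the threshold and missed it in a fit on the 4 arrays compared (adjusted p = 0.0924) and with the ordinary variances of the one-way analysis of variance that the methods name (0.103). It also missed it when siKlf4 replicate 2 without TGFβ (adjusted p = 0.208), siKlf4 replicate 1 or 2 with TGFβ (0.271 and 0.0949) or either siControl array with TGFβ (0.0773 each) was left out. The 2 Lif differences did not differ past the threshold (interaction 0.18, 95% interval -0.11 to 0.468, adjusted p = 0.642).

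Il6st, the gp130 subunit shared by IL-6, IL-11 and LIF receptors, was the receptor gene of the list that could be measured. Its log2 values were 9.05 and 9.09 in siKlf4 arrays with TGFβ, against 9.55 and 9.55 in siControl arrays with TGFβ. Without TGFβ, they were 9.18 and 9.10 in siKlf4 arrays, against 9.18 and 9.13 in siControl arrays. The siControl arrays with TGFβ thus stood apart from the other 3 groups. Il6st rose with TGFβ in siControl arrays by 0.40 (SE 0.0767, 1.32-fold, adjusted p = 0.00979, limma), but missed the threshold without siControl replicate 1 with TGFβ (adjusted p = 0.0716) or replicate 2 with TGFβ (0.0744). In siKlf4 arrays the difference was -0.07 (95% interval -0.247 to 0.0999, adjusted p = 0.676). The siKlf4 difference was -0.48 with TGFβ and -0.01 without TGFβ.

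Il6, the founding cytokine of the family, had log2 values between 2.65 and 2.92 on the 8 arrays, within the dimmest 30% of genes. The siKlf4 differences were 0.00 with TGFβ and -0.05 without TGFβ, and the groups overlapped. TGFβ differences were 0.04 in siKlf4 arrays (95% interval -0.176 to 0.265) and -0.01 in siControl arrays (-0.226 to 0.215). Neither passed (adjusted p = 0.871 and 0.985).

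Among the other IL-1 family members, Il1rn, which encodes the IL-1 receptor antagonist, was highest in siKlf4 arrays with TGFβ. Its log2 values were 7.44 and 7.72 in siKlf4 arrays with TGFβ, against 6.70 and 6.93 in siControl arrays with TGFβ. Without TGFβ, they were 6.74 and 6.50 in siKlf4 arrays, against 6.69 and 6.63 in siControl arrays. Il1rn rose with TGFβ in siKlf4 arrays by 0.96 (SE 0.126, 95% interval 0.673 to 1.24, 1.94-fold, adjusted p = 0.00116, limma), a call that held under every alternative and without any one array. In siControl arrays the TGFβ difference was 0.16 (-0.13 to 0.441, adjusted p = 0.529). The siKlf4 difference was 0.77 with TGFβ and -0.04 without TGFβ.

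Il18, which encodes a cytokine matured by caspase-1, was dim, with log2 values of 3.38 and 3.42 in siKlf4 arrays with TGFβ, against 4.13 and 3.72 in siControl arrays with TGFβ. Without TGFβ, they were 3.65 and 3.72 in siKlf4 arrays, against 3.52 and 3.47 in siControl arrays. The siKlf4 difference was -0.53 with TGFβ and 0.19 without TGFβ, and the groups did not overlap in either comparison. Without siControl replicate 1 with TGFβ, the first of these was -0.32. The TGFβ difference was 0.43 in siControl arrays (95% interval 0.152 to 0.714), just outside the threshold at an adjusted p = 0.0537, and it passed without siControl replicate 2 with TGFβ (0.64, adjusted p = 0.0141). In siKlf4 arrays it was -0.28 (-0.565 to -0.00313, adjusted p = 0.204). Il1a, which encodes IL-1α, was also dim, with log2 values between 2.83 and 3.30, overlapping groups and siKlf4 differences of 0.07 with TGFβ and 0.05 without TGFβ.

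Counted over the 8 measured genes with TGFβ, 3 had both siKlf4 arrays above both siControl arrays (Il11, Lif and Il1rn), where 27.5% of all genes did, and 3 had both below (Il33, Il6st and Il18), where 34.9% of all genes did. Without TGFβ, 3 lay above (Il11, Lif and Il18), where 24.7% of all genes did, and 1 below (Il33), where 24.4% did. These counts describe genes chosen on the same contrasts, and nothing is read from them. For TGFβ in siKlf4 arrays, 1 of the 6 tested members rose (Il1rn), 1 fell (Lif) and 4 did not pass in limma, while 6.01% of all genes were called higher and 6.87% lower. For TGFβ in siControl arrays, 1 rose (Il6st), 1 fell (Lif) and 4 did not pass, while 5.81% of all genes were called higher and 6.65% lower. The siKlf4 and siControl TGFβ differences were compared by the interaction term for the 6 members other than Il11 and Il33, where 1.52% of all genes were called, and 0 of the 6 passed in limma. At an unadjusted p under 0.05 there were 3, namely Il1rn (0.80, SE 0.178, adjusted p = 0.0722), Il6st (-0.47, SE 0.108, adjusted p = 0.0797) and Il18 (-0.72, SE 0.175, adjusted p = 0.0992). With an intensity trend and robust variances in limma, all 3 passed, at adjusted p = 0.0155, 0.00554 and 0.0375 in that order. Of the 6 members, 2 passed after quantile normalization, 1 after cyclic loess normalization, and 0 with a replicate block or ordinary variances. The shares of all genes called at these settings, and at an unadjusted p under 0.05, are not given here, so nothing is read from these counts. For Il33 and Il11 the interaction was -0.92 and -0.15, given as a description.

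**Figure D2:**
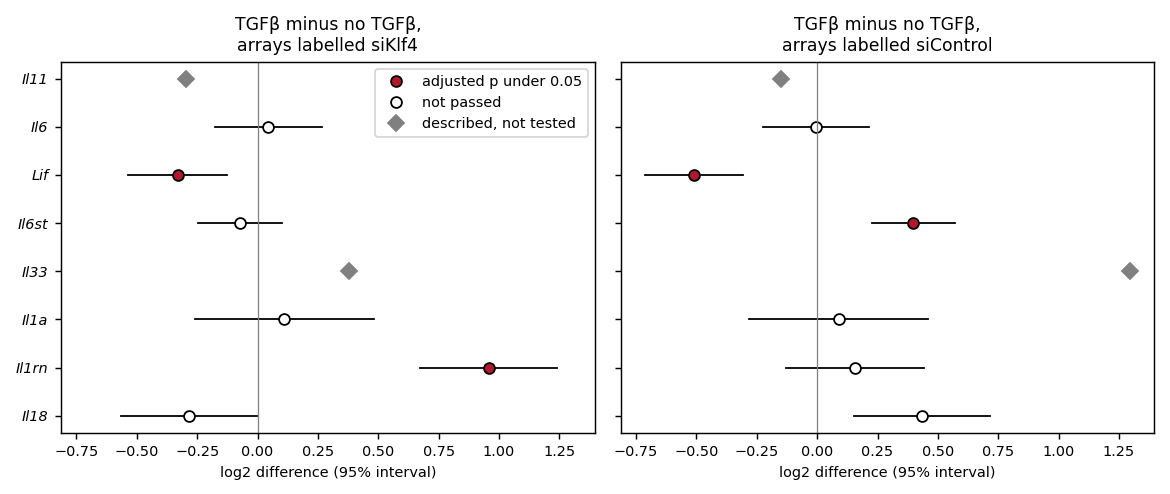
Log2 difference of TGFβ minus no TGFβ for the 8 measured genes, in arrays labelled siKlf4 (left) and siControl (right), with 95% intervals from limma. Filled circles passed an adjusted p of 0.05, open circles did not, and grey diamonds (Il11 and Il33) were not tested. Il1rn and Lif passed in siKlf4 arrays, and Il6st and Lif in siControl arrays.

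The remaining genes of both pathways were compared from 6 lists, none of which contains a measured member, and for these the siKlf4 differences were tested. The lists were drawn up with earlier results of these data known, so the counts are not an independent test of the pathways. Over the 105 genes measured of 112 listed, 30 were higher and 16 lower in siKlf4 arrays with TGFβ, or 28.6% and 15.2%, where 12.3% and 11.9% of all genes were called. Without TGFβ, 28 were higher and 12 lower, or 26.7% and 11.4%, where 9.98% and 9.71% of all genes were called. The median log2 difference over the lists was 0.04 with TGFβ and 0.09 without TGFβ, against -0.03 and 0.00 over all genes. The 2 comparisons use different arrays. The shares of all genes called apply to each list below as well.

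Of 13 other IL-6 family ligands and receptors, 2 were higher and 0 lower in siKlf4 arrays under either condition in limma (0 lower at an unadjusted p under 0.05 as well). The higher calls were 15.4% of this list, where 12.3% of all genes were called higher with TGFβ and 9.98% without. Clcf1, which encodes cardiotrophin-like cytokine factor, had log2 values of 9.23 and 9.26 in siKlf4 arrays with TGFβ, against 8.13 and 8.20 in siControl arrays with TGFβ. It was 1.08 higher with TGFβ (2.11-fold, adjusted p = 1.3e-05) and 0.70 higher without TGFβ (1.62-fold, adjusted p = 0.00028). Il6ra, the IL-6 binding receptor, was 0.75 higher with TGFβ (adjusted p = 0.000175) and 0.54 higher without TGFβ (adjusted p = 0.00162). All 4 calls held without any one array. Receptors and ligands that did not pass under either condition included Osm, Osmr, Lifr and Cntfr, with siKlf4 differences between -0.15 and 0.18. Their mean log2 values over the 8 arrays were 3.67, 3.46, 3.48 and 4.74 in that order, and Osmr and Lifr were dim. Osm was low as well, close to Il18, a dim gene with a mean of 3.63 and 18.5% of genes at or below it.

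Of 15 genes of JAK-STAT3 signalling below gp130, 5 were higher and 2 lower in siKlf4 arrays with TGFβ, and 6 were higher and 1 lower without TGFβ. Cish, an inhibitor of cytokine receptors that is induced by STAT signalling, was 1.29 higher with TGFβ (adjusted p = 1.82e-05) and 1.10 higher without (8.08e-05). The kinase Jak2 was higher by 0.73 and 0.71, Stat3 itself by 0.59 and 0.61, and the phosphatase gene Ptpn11 by 0.48 and 0.47, with and without TGFβ in that order. Socs3, the feedback inhibitor of gp130, was lower. Its log2 values were 7.69 and 7.73 in siKlf4 arrays with TGFβ, against 8.35 and 8.40 in siControl arrays with TGFβ, and 8.10 and 8.12 in siKlf4 arrays without TGFβ, against 8.78 and 8.68 in siControl arrays without TGFβ. The differences were -0.67 (adjusted p = 0.000198) and -0.62 (0.00045), and every siKlf4 array lay below the siControl arrays of its condition. These 10 calls held without any one array. Jak1 was 0.41 higher without TGFβ (adjusted p = 0.00639) and 0.13 with TGFβ (0.325, not passed). The weaker calls of Socs1 (-0.38 with TGFβ, adjusted p = 0.0281) and the shedding protease gene Adam10 (0.30 with TGFβ, 0.0381, and 0.31 without, 0.038) were lost without single arrays, Socs1 most without siKlf4 replicate 1 with TGFβ (0.218) and also without either siControl array with TGFβ, leaving 1 gene called lower. Adam10 lost its call with TGFβ without any of the 4 arrays compared, with an adjusted p up to 0.194 (siControl replicate 2), and without TGFβ in 7 of the 8 cases of 1 array left out, with a p up to 0.175 (siKlf4 replicate 1).

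Of 17 genes known to be induced through STAT3, 5 were higher and 6 lower in siKlf4 arrays with TGFβ, and 5 were higher and 3 lower without TGFβ, so the list split in both directions. Pim1, a survival kinase, was 1.42 higher with TGFβ (adjusted p = 4.81e-06) and 1.25 higher without (1.65e-05). Lbp, which encodes the lipopolysaccharide binding protein, was 0.98 and 1.17 higher, Timp1, a metalloproteinase inhibitor, 0.95 and 0.77, Junb, an AP-1 subunit, 1.01 and 0.57, and Il4ra, the IL-4 receptor, 0.61 and 0.36, with and without TGFβ in that order. Fgb, a fibrinogen chain and acute phase gene, had log2 values of 4.87 and 4.82 in siKlf4 arrays with TGFβ, against 7.10 and 7.36 in siControl arrays with TGFβ. The difference was -2.39 with TGFβ (adjusted p = 5.81e-07) and -1.38 without (1.48e-05). Lcn2, which encodes the iron-scavenger lipocalin 2, was lower too, at -1.44 with TGFβ (adjusted p = 0.00066) and -1.88 without (0.000183). Saa3 (-0.78), Hp (-0.65), Pim3 (-0.56) and Cebpb (-0.30) were lower with TGFβ and Bcl3 (-0.54) without. Saa3 was dim, with a mean log2 value of 3.51 over all arrays, and its call was lost with ordinary variances. Without TGFβ, Junb lost its call without siControl replicate 2 (adjusted p = 0.0822) or either siKlf4 array, and Il4ra without siKlf4 replicate 2 (0.0684), which left 3 higher. With TGFβ, Cebpb lost its call without any of the 4 arrays compared, with an adjusted p up to 0.225 (siControl replicate 1).

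Of 15 other IL-1 family ligands and receptors, 2 were higher and 0 lower in siKlf4 arrays with TGFβ in limma (2 lower at an unadjusted p under 0.05), and 2 were higher and 1 lower without TGFβ. The higher calls were 13.3% of this list, where 12.3% of all genes were called higher with TGFβ and 9.98% without. Il18rap, the accessory chain of the IL-18 receptor, had log2 values of 8.73 and 8.76 in siKlf4 arrays with TGFβ, against 7.25 and 6.83 in siControl arrays with TGFβ. It was 1.71 higher with TGFβ (3.27-fold, adjusted p = 1.66e-05) and 1.63 higher without (3.1-fold, 3.64e-05). Il1rap, the co-receptor shared by the IL-1 and IL-33 receptors, was 1.15 higher with TGFβ (adjusted p = 0.000199) and 0.65 higher without (0.00758), the second call being lost without siControl replicate 1 (0.0529) or siKlf4 replicate 2, either of which left 1 gene called higher. Il18bp, the secreted inhibitor of IL-18, was lower without TGFβ (-0.50, adjusted p = 0.0263), a call lost without any one of the 4 arrays compared (up to 0.13, without siKlf4 replicate 2). With TGFβ, 1 gene was called lower when siKlf4 replicate 1 with TGFβ was left out. Il18r1, the IL-18 binding chain, the decoy receptor gene Il1r2 and the inhibitory receptor gene Sigirr did not pass in either siKlf4 comparison, with differences between -0.31 and 0.15. Il1b did not pass either, at -0.03 with TGFβ and -0.08 without TGFβ. Mean log2 values over all arrays were 3.47 for Il18r1, which was dim, 3.69 for Il1r2 and 3.84 for Il1b. Il1r2 and Il1b were low as well, not far above Il18, a dim gene with a mean of 3.63 and 18.5% of genes at or below it.

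Of 30 genes of IL-1 processing and of signalling through MyD88 to NF-κB, 11 were higher and 4 lower in siKlf4 arrays with TGFβ, and 7 were higher and 4 lower without TGFβ. The counts without TGFβ came to 3 higher without siControl replicate 2, and to 2 lower without siControl replicate 1 or siKlf4 replicate 2. With TGFβ, 2 were lower without siControl replicate 1 or 2 or siKlf4 replicate 1. Nfkbia, which encodes the NF-κB inhibitor IκBα, was 0.90 higher with TGFβ (adjusted p = 0.000617), and 0.34 without (0.1, not passed). Capn2, a calpain subunit, was 0.89 higher with TGFβ (2.66e-05) and 0.77 without (0.000104). The cytosolic DNA sensor gene Aim2 was 0.61 and 0.77 higher, and Nfkb2 0.55 and 0.62, with and without TGFβ in that order. Gsdmd, which encodes the pore-forming protein gasdermin D, was lower in siKlf4 arrays by -0.78 with TGFβ (9.04e-05) and -0.80 without (0.000118), and Casp4, the caspase that cleaves it on sensing lipopolysaccharide, by -0.68 without TGFβ (0.00085). Casp4 was -0.34 with TGFβ (0.0277), a call lost without any 1 of the 4 arrays compared, with a p up to 0.169 (siKlf4 replicate 1). Tollip, an inhibitor of the IL-1 receptor complex, was lower by -0.52 with TGFβ (0.00204), and Rel, an NF-κB subunit, by -0.35 (0.0149), the call of Rel being lost without siControl replicate 1 or 2 or siKlf4 replicate 1 with TGFβ (up to 0.131). Tirap, a TIR adaptor, was 0.58 higher with TGFβ (0.00504) and 0.53 without (0.0107), the calls being lost without siControl replicate 1 with TGFβ (0.0507), and without siControl replicate 2 or siKlf4 replicate 2 without TGFβ (up to 0.0736). Without TGFβ, the inflammasome sensor gene Nlrc4 (-0.60, adjusted p = 0.0186) and Tab3 (-0.40, 0.0421) were lower. Nlrc4 lost its call without siControl replicate 1 or siKlf4 replicate 2 (up to 0.123), and Tab3 in 6 of 8 cases of 1 array left out, with a p up to 0.226 (siKlf4 replicate 2). Casp1, the caspase that matures IL-1β and IL-18, did not pass, at -0.40 with TGFβ and 0.24 without TGFβ.

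Of 15 genes known to be induced through NF-κB, 5 were higher and 4 lower in siKlf4 arrays with TGFβ, and 6 were higher and 3 lower without TGFβ. Tnfaip3, which encodes the NF-κB feedback inhibitor A20, was 1.76 higher with TGFβ (adjusted p = 2.08e-06) and 1.64 higher without (5.03e-06). The colony-stimulating factor genes Csf1 (1.23 and 1.99) and Csf2 (1.41 and 1.74), the cyclooxygenase gene Ptgs2 (2.34 and 1.01) and the chemokine gene Ccl2 (0.70 and 1.30) were higher under both conditions, with and without TGFβ in that order. The apoptosis inhibitor gene Birc3 was 0.63 higher without TGFβ (adjusted p = 0.00279) and 0.27 with TGFβ (0.11, not passed). Ccl20, a chemokine that attracts CCR6-bearing lymphocytes, had log2 values of 5.23 and 5.06 in siKlf4 arrays with TGFβ, against 9.31 and 8.92 in siControl arrays with TGFβ. It was lower by -3.97 with TGFβ (adjusted p = 7.05e-07) and -2.96 without (4.75e-06), and its values in siKlf4 arrays without TGFβ, 6.04 and 6.08, were also below those of siControl arrays, 9.26 and 8.78. Among the neutrophil chemokines, Cxcl5 was lower by -1.11 with TGFβ (0.00406) and -2.67 without (3.15e-05), and Cxcl1 by -0.35 with TGFβ (0.0467) and -1.06 without (0.000135). Vcam1, an adhesion receptor, was lower with TGFβ (-1.17, 0.000832) and did not pass without (0.16, 0.644). With TGFβ, Cxcl1 lost its call without any siKlf4 or siControl array with TGFβ or either siKlf4 array without TGFβ (up to 0.222, siControl replicate 1 with TGFβ), and Ccl2 without siControl replicate 2 or siKlf4 replicate 1 (0.0558).

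**Figure D3:**
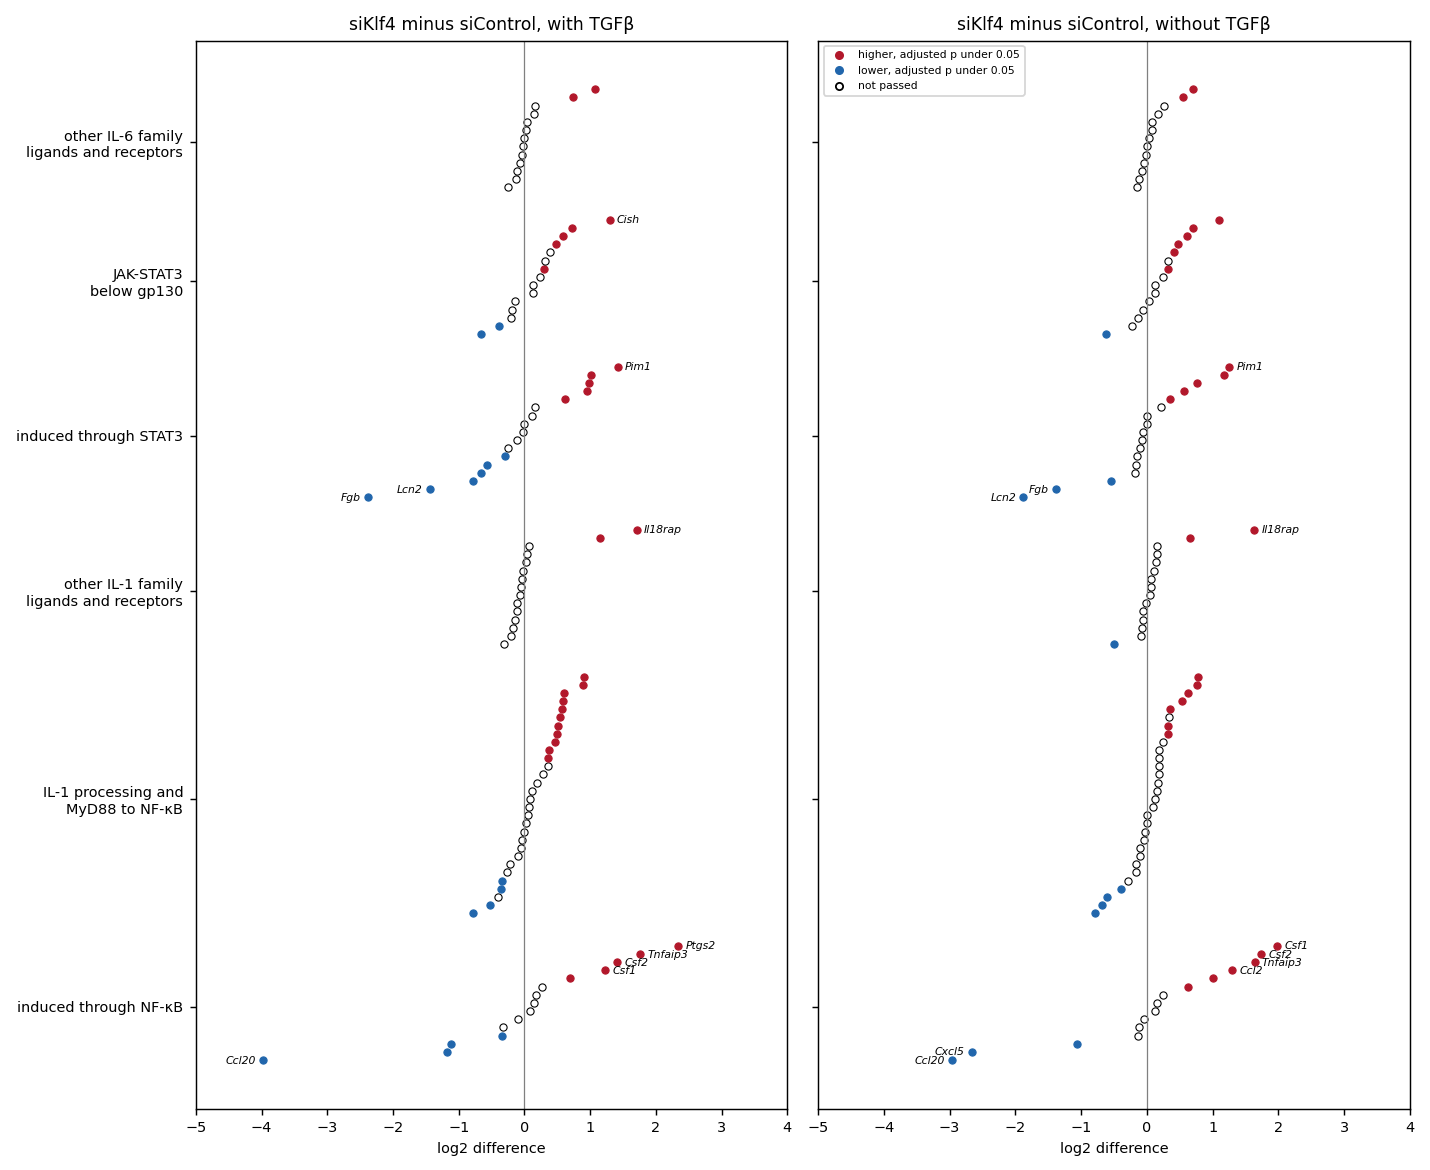
Log2 difference of siKlf4 minus siControl with TGFβ (left) and without TGFβ (right) for the 105 measured genes of 6 lists, 1 point per gene, ordered by size within each list. Red and blue points passed an adjusted p of 0.05 as higher or lower, open points did not, and the genes with the largest called differences are named. Csf1, Csf2 and Tnfaip3 stand to the right and Ccl20 to the left in the same NF-κB list.

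In siKlf4 arrays 11 of the 105 pathway genes rose and 13 fell with TGFβ, or 10.5% and 12.4%, where 6.01% and 6.87% of all genes were called. In siControl arrays 9 rose and 14 fell, or 8.57% and 13.3%, where 5.81% and 6.65% of all genes were called. Without siKlf4 replicate 1 with TGFβ, 6 rose and 5 fell in siKlf4 arrays, and without replicate 2 with TGFβ, 7 rose and 6 fell. In siControl arrays, 3 rose and 7 fell without either siControl array with TGFβ, and 4 rose and 7 fell without siControl replicate 1 without TGFβ. Under both transfections, 10 genes were called for TGFβ, 9 of them in the same direction. The share of all genes called under both is not given here, so nothing is read from these counts. With values in siKlf4 arrays and then in siControl arrays, the docking protein gene Gab1 rose by 0.75 and 0.63 and Cish by 0.62 and 0.43. Adam17, the protease that sheds the IL-6 receptor, fell by 0.67 and 0.70, Tnfaip2 by 0.88 and 0.72, Myd88, the adaptor of IL-1 family receptors, by 0.61 and 0.84, Tollip by 0.71 and 0.36, Tirap by 0.42 and 0.48, Socs3 by 0.40 and 0.35, and Gsdmd by 0.39 and 0.41. The exception was Ptgs2, at 0.86 in siKlf4 arrays and -0.48 in siControl arrays (adjusted p = 0.00273 and 0.0463, limma). Ordinary variances ended both Ptgs2 calls, and a fit on only the 4 arrays compared ended the siControl call. That call was also lost without single arrays, and with any one array left out its difference ran from -0.62 to -0.34. For 3 of the 9, Gab1, Adam17 and Tnfaip2, both calls held without any one array, and the other 6 lost at least 1 call without a single array. These genes were chosen after their values were seen.

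The genes whose profile over the 8 arrays was nearest to Il11 or Il33 were ranked by the root mean square difference of log2 values after centring each gene on its own mean. Genes with clone or prediction names (Gm, Rik, LOC and the like) were left out of the ranking. Nearest to Il11 was Ctsw, a cathepsin gene known from lymphocytes, at 0.208 (r = 0.995), followed by the Wnt ligand gene Wnt7a at 0.414 (r = 0.995), the peptide hormone gene Uts2b at 0.435 (r = 0.990), the syndecan gene Sdc3 at 0.458 (r = 0.981) and the tight junction gene Cldn4 at 0.530 (r = 0.988). Nearest to Il33 were the glucuronosyltransferase gene Ugt2b34 at 0.375 (r = 0.989), the sulfotransferase gene Sult1d1 at 0.387 (r = 0.983), Ugt2b36 at 0.396 (r = 0.982), the retinaldehyde dehydrogenase gene Aldh1a1 at 0.421 (r = 0.989) and the aldo-keto reductase gene Akr1c19 at 0.465 (r = 0.978). These values are a description over 8 arrays in 4 groups, and whether the similar genes Ugt2b34 and Ugt2b36 shared signal on the arrays was not tested. Like Il33, Ugt2b34 was lower in siKlf4 arrays, by -4.91 with TGFβ and by -3.39 without TGFβ. Like Il11, Ctsw was 4.09 higher under both conditions.

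**Figure D4:**
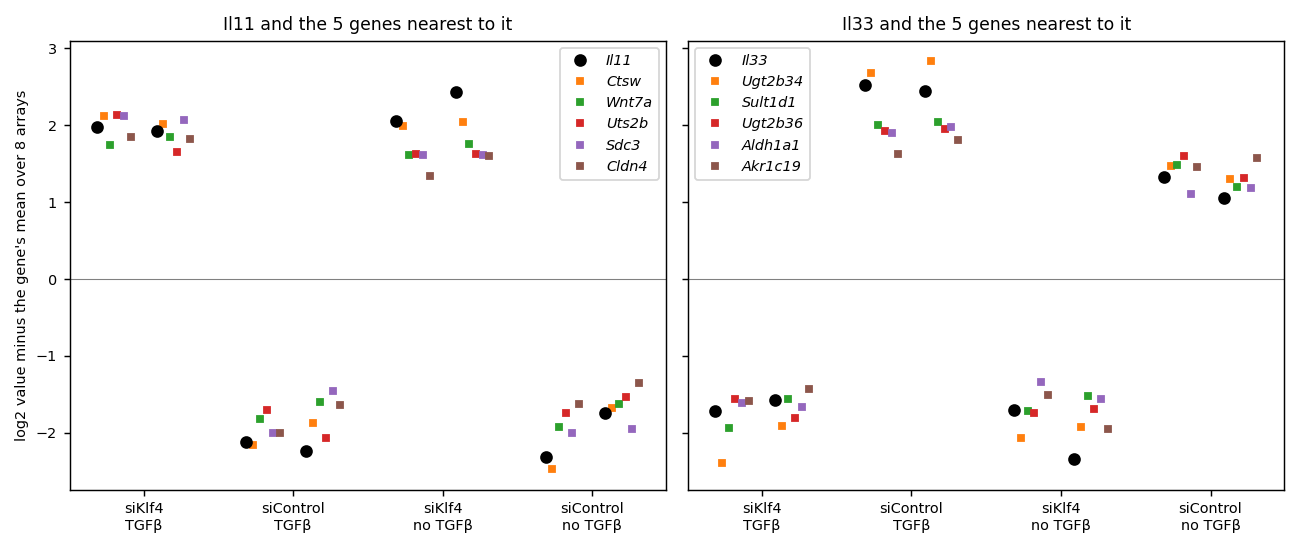
Centred log2 values of Il11 (left) and Il33 (right) with the 5 genes nearest to each, on the 2 arrays of each of the 4 groups. Il11 and its 5 nearest genes lay above their means on all 4 siKlf4 arrays, and Il33 and its 5 nearest genes lay above theirs on all 4 siControl arrays.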

How the data were processed

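Affymetrix whole-transcript arrays measured RNA of NMuMG cells in 8 samples, 2 per group. Groups and replicates were taken from the labels. The authors deposited log2 expression values from RMA, which corrects background, sets arrays to a common distribution and summarises each probe set, and oligo 1.14.0 is given in the submitters' processing notes. The log2 base was read from the range of the values (1.88 to 13.8). Background settings and annotation are not given in the sources used here. Quantile normalization within RMA sets the arrays to 1 distribution before each probe set is summarised, so a shift of all genes could not be seen. After summarising, the array medians were close but not equal, at 4.90 to 5.00.

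Of 34760 probe sets, 21640 had 1 symbol in the platform annotation, 1321 several and 11799 were not listed. The probe set with the highest mean was kept for each of 19937 genes. Groups were compared in R 4.3.3 with limma 3.58.1 (1 mean per group over all 8 arrays, eBayes, Benjamini-Hochberg adjustment over all genes, threshold 0.05), with 4 degrees of freedom left and 4.93 from the prior. The fit was tested on simulated data. The TGFβ test planned for 8 members was kept for 6, leaving out Il11 and Il33. The interaction is the siKlf4 difference with TGFβ minus that without. Dim genes are the 30% with the lowest mean. The number of arrays limits the precision.

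The members and lists were chosen with earlier results of these data known. Named genes are the members, Klf4, up to 4 genes per direction and list with the largest called differences (all where 5 or fewer), members' receptors, ligands and inhibitors that did not pass, and the 5 genes nearest to Il11 and to Il33. Some further called genes of longer lists, and those called for TGFβ under both transfections, were added after their values were seen. Promoters are RefSeq sequences on GRCm38.p6. Settings tried besides were a replicate block, only the 4 arrays of a comparison, ordinary variances, limma's trend and robust options, quantile and cyclic loess normalization, no dim genes, the mean of all probe sets, a threshold of 0.01 and each array left out.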

Additional observations from a re-analysis of the deposited data

Results flagged for a closer look

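4 pathway genes outside the member list had a siKlf4 difference that changed with TGFβ, by limma's interaction term, which called 1.52% of all genes and 4 of these 105. Fgb, the fibrinogen chain gene, had an interaction of -1.0 (SE 0.136, adjusted p = 0.0128), being lower in siKlf4 arrays by -2.39 with TGFβ and by -1.38 without TGFβ. Ptgs2, the cyclooxygenase gene, had an interaction of 1.33 (SE 0.186, adjusted p = 0.0145), with siKlf4 differences of 2.34 with TGFβ and 1.01 without TGFβ. Vcam1 had an interaction of -1.33 (SE 0.243, adjusted p = 0.0356), at -1.17 with TGFβ and 0.16 without TGFβ. Cxcl5 had an interaction of 1.56 (SE 0.300, adjusted p = 0.0432), at -1.11 with TGFβ and -2.67 without TGFβ. Each call was lost with ordinary variances (adjusted p between 0.132 and 0.306) and without single arrays. Fgb and Ptgs2 lost theirs in 3 of 8 cases of 1 array left out (siControl replicate 2 and either siKlf4 replicate with TGFβ), with an adjusted p up to 0.0715 and 0.0808. Vcam1 and Cxcl5 lost theirs in 7 of 8 cases, up to 0.152 and 0.18, both without siKlf4 replicate 2 with TGFβ. The exceptions were Vcam1 without siControl replicate 1 with TGFβ and Cxcl5 without siKlf4 replicate 1 without TGFβ, where the calls held.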

How the results depend on the processing

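Of 291 values recomputed for 18 tested differences of single members, 270 kept their side of the threshold, and 12 lost and 9 gained a call. None with a call, before or after, changed direction. Changes of direction in differences that passed in neither were not counted. Members called for TGFβ in siKlf4 arrays numbered 1 instead of 2 with the replicate block, the fit on only the 4 arrays, ordinary variances and a threshold of 0.01, and 1 to 2 with single arrays left out. For TGFβ in siControl arrays, Il6st lost its call when either siControl array with TGFβ was left out. Without siControl replicate 2 with TGFβ, Lif lost its call too, while Il18 gained one, so neither of the original calls held there. The interaction called 3 members with trend and robust options, 2 after quantile and 1 after cyclic loess normalization, instead of 0, and 0 with any array left out. With single arrays left out, pathway genes called for TGFβ in siControl arrays numbered 3 to 10 higher (9 with all arrays) and 7 to 14 lower (14), and in siKlf4 arrays 6 to 10 higher (11) and 5 to 13 lower (13). Ordinary variances gave 3 higher and 8 lower for TGFβ in siControl arrays, 4 higher and 7 lower in siKlf4 arrays, and 10 lower instead of 16 for siKlf4 with TGFβ. The threshold of 0.01 gave 4 higher and 7 lower in siControl arrays and 6 higher and 8 lower in siKlf4 arrays, and trend and robust options 15 higher in siControl arrays. Of 133 pathway calls over 4 comparisons, 73 held under every alternative at 0.05. An array left alone in its group was assumed to vary like the others. Replicate differences correlated between groups from -0.05 to 0.38 over 6 pairs of groups, so the numbers were not taken as pairs, and the block ended the Lif call in siKlf4 arrays (adjusted p = 0.0501) and no other member's. The number of arrays, with no signal over background per probe set, limits what can be said of Il6, Il1a and Il18. The same holds for other genes with low values, such as Osm, Osmr, Lifr, Il18r1, Il1r2, Il1b and Saa3.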
